A study of Mus musculus with 20 samples.

Results

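Naive CD4 T cells with high surface CD5 that had been rested away from self ligands (rested CD5hi) were set against naive CD4 T cells with low CD5 taken straight from the animal (fresh CD5lo), gene by gene, in 4 libraries of each, 8 of the 20 libraries of the series. Both groups came from spleen and lymph node of C57BL/6 mice with a Foxp3-GFP reporter, aged 8 to 12 weeks. The sort kept TCRb+ CD4+ CD8- Foxp3-GFP- CD44lo cells from the 15% with the lowest or the highest CD5, after cells stained for CD69, B220, NK1.1, F4/80, Ly6G, CD11b or CD11c had been gated out. Fresh cells were processed at once, and rested cells were kept for 22 hours in dissociated culture with interleukin 7 (IL-7, a survival cytokine of naive T cells) at 10 ng/mL. Fresh CD5hi and rested CD5lo cells, also with 4 libraries each, are given beside the comparison, and the remaining 4 libraries are regulatory T cells (Treg), which entered the shared estimate of the spread and give 1 level for comparison. The labels describe pooled males and females; how many mice went into a library, and whether libraries shared any, is not given in the sources used here, so p-values measure the spread between these libraries. The cell type label of the CD5hi libraries begins with CD5lo and ends with the 15% CD5hi gate, and the groups were therefore taken from the titles.

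CD5 is a surface receptor that restrains signalling by the T cell receptor (TCR). On naive cells its level is set by how strongly their TCR meets self-peptide on MHC, and that contact keeps a low tonic signal running, which induces genes such as Nr4a1 and the Egr family. The question, as the series' text puts the design, is what is left of the CD5hi programme once the contact is taken away. A gene that CD5hi cells carry at a higher level when fresh could stay above the fresh CD5lo level after resting, come down to it, or pass below it. The 2 groups differ at once in the CD5 sort, in 22 hours of culture, in IL-7 and, as below, mostly in sex, which cannot be told apart from these groups alone, so the rested CD5lo value is printed beside the genes the results turn on.

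Total counts ran from 51060992 to 58269055 in the fresh CD5lo libraries and from 38211406 to 50654225 in the rested CD5hi libraries. Against the label of pooled sexes, each of these libraries had reads of 1 sex only. Y-linked genes summed to 371 to 397 CPM (counts scaled to the effective library size) in the 4 fresh CD5lo libraries, where Xist, the transcript of the inactive X, did not exceed 0.626 CPM. Of the rested CD5hi libraries only replicate 3 had Y-linked reads (326 CPM), and replicates 1, 2 and 4 had 897 to 1083 CPM of Xist instead. Rested CD5lo libraries were split alike, with Y-linked reads in replicate 3 (334 CPM) and 755 to 1184 CPM of Xist in replicates 1, 2 and 4. All 4 fresh CD5hi libraries had Y-linked reads (366 to 405 CPM). Values shared by the 2 rested groups therefore cannot separate sex from culture and IL-7. Results are therefore also given, where they move, from libraries with Y-linked reads alone, which leaves 1 rested CD5hi library.

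Of the sort markers, only CD5 was gated differently between these groups, and Cd5 followed its gate. Cd5 stood at 144, 158, 135 and 153 CPM in fresh CD5lo replicates 1 to 4, and at 460.0, 456, 488 and 442 CPM in rested CD5hi replicates 1 to 4; values of single libraries are given in this order throughout. Every rested CD5hi library lay above every fresh CD5lo library, and below the lowest fresh CD5hi library (980.0, 989.6, 905 and 1055 CPM). Cd4 was lower in rested CD5hi cells (1109 ± 24.1 against 731 ± 27.6 CPM, mean ± SD, n = 4), and so was Cd44, the adhesion receptor gated low in the sort (31.8 ± 1.31 against 8.19 ± 1.25 CPM). Foxp3, which defines Treg, stood at 20.9, 22.4, 23.3 and 22.8 CPM in fresh CD5lo and 29.8, 29.2, 24.6 and 30.9 CPM in rested CD5hi libraries. Its rise of 0.36 ± 0.06 (log2 ± SE; edgeR adjusted p = 5.0e-05) was 0.16 with libraries of Y-linked reads alone (adjusted p = 0.12). The 6 CD4 T cell markers summed to 2937 to 3048 CPM in fresh CD5lo and 2133 to 2161 CPM in rested CD5hi libraries, and 5 of the 6 were called lower, among them the TCR complex genes Cd3e (-0.67 ± 0.08) and Cd3g (-0.64 ± 0.06).

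Rested CD5hi cells differed widely from fresh CD5lo cells. Of 13309 genes tested, 7212 differed at an edgeR adjusted p under 0.05, or 54.2%, with 3605 higher (27.1%) and 3607 lower (27.1%). At least 2-fold differences were found in 787 genes that were higher (5.91%) and 851 that were lower (6.39%). A further 3961 genes (29.8%) did not pass and had a 95% interval inside 1.5-fold in both directions, and 2136 (16.0%) did not pass with an interval reaching beyond 1.5-fold. The 4 and 4 libraries did not overlap in 23.4% of genes upwards and 23.3% downwards. As a distance over all tested genes, rested CD5hi libraries lay at a median of 0.924 (root mean square of log2 differences, 0.878 to 0.959 over 16 pairs) from fresh CD5lo libraries. The median was 0.889 from fresh CD5hi libraries and 0.566 from rested CD5lo libraries, against 0.543 between the 2 fresh groups, so the nearest group was the other rested one. That group also had the same split by sex.

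Genes were then sorted by how they differed between the fresh groups. Fresh CD5hi cells had 913 genes higher (6.86%) and 611 lower (4.59%) than fresh CD5lo cells. A gene of these is said here to have stayed where rested CD5hi cells were called on the same side of the fresh CD5lo level, to have passed where they were called on the other side, and to have reached it where no call was made and the 95% interval lay within 1.5-fold. Both comparisons use the same fresh CD5lo libraries, so the classes describe the genes and are not a test of agreement. Of the 913 higher genes, 541 stayed (59.3%), 123 reached the fresh CD5lo level (13.5%), 156 passed below it (17.1%) and 93 (10.2%) could not be placed. Of the 611 lower genes, 361 stayed (59.1%), 123 reached the level (20.1%), 99 passed above it (16.2%) and 28 (4.58%) could not be placed. Among the 11785 genes not linked to CD5 when fresh, 25.2% were higher and 26.2% lower.

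**Figure D1:**
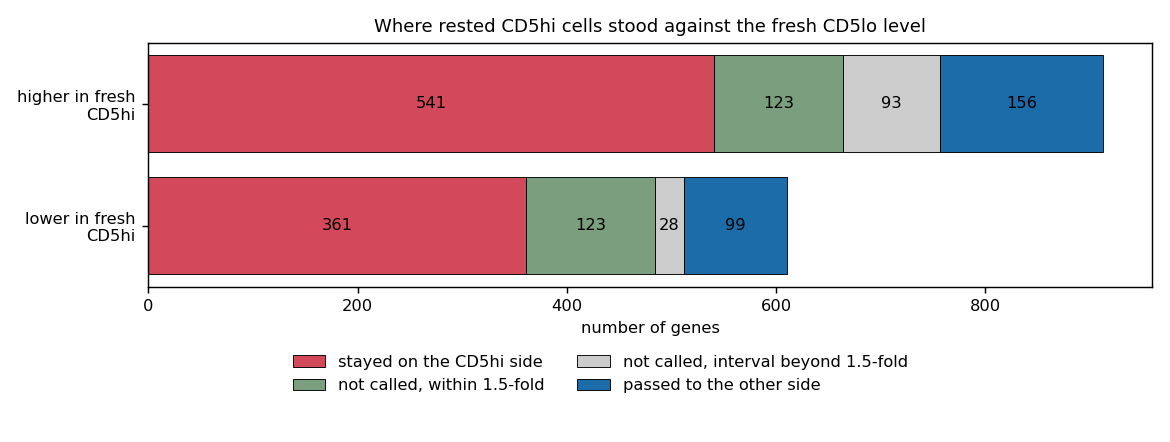
Number of genes (x axis) that differed between fresh CD5hi and fresh CD5lo cells, higher in the upper bar and lower in the lower bar, split by where rested CD5hi cells stood against the fresh CD5lo level. The largest share stayed on the CD5hi side in both bars (541 of 913 and 361 of 611), and 156 and 99 passed to the other side.

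Staying did not mean being left at the fresh CD5hi level. Of the 541 genes that stayed higher, 235 were called above fresh CD5hi cells as well, 88 were called below them and 218 did not pass that test; the shares over the whole table, rested against fresh CD5hi cells, were 26.2% higher and 26.2% lower. Over all 913 fresh-higher genes the median difference from fresh CD5lo was 0.43 after resting, against 0.61 when fresh. For the 541, which were picked by their call after resting, it was 0.87 after resting and 0.61 when fresh, with 0.37 in rested CD5lo cells. The 156 genes that passed had medians of -0.83 in rested CD5hi and -1.18 in rested CD5lo cells. The CD5 order was still seen in part of them: 57 of the 156 were called higher in rested CD5hi than in rested CD5lo cells, where 4.74% of all genes were called higher and 3.46% lower. With a fresh difference of at least 2-fold, 274 genes were higher, of which 164 stayed, 9 reached the level, 33 passed and 68 could not be placed. With a fresh difference of at least 2-fold, 98 genes were lower, of which 69 stayed, 3 reached the level, 11 passed and 15 could not be placed. Of the 361 genes that stayed lower, 166 were called below fresh CD5hi cells, 29 above them and 166 did not pass.

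The genes that passed below the fresh CD5lo level included the best known targets of the TCR. Of 23 genes in a list of TCR-induced genes, 22 were tested, and 13 of these were higher in fresh CD5hi cells. Of the 13, 7 passed, namely Nr4a1, Nr4a3, Egr1, Egr2, Egr3, Dusp2 and Nab2, 5 stayed (Nr4a2, Tnfrsf9, Tnfrsf4, Cd200 and Spry1) and Dusp4 could not be placed. Of all 913 fresh-higher genes, 17.1% passed and 59.3% stayed. Over the whole list 10 were called higher and 9 lower in rested CD5hi than in fresh CD5lo cells, with a median of 0.25, against a median of -0.00 over all genes. Of all genes tested, 27.1% were called in each direction, which is the share to set beside each list count below.

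Nr4a1, which encodes the orphan nuclear receptor Nur77 and is read as a gauge of TCR signal strength, stood at 30.0, 32.9, 35.6 and 29.0 CPM in fresh CD5lo libraries and 9.97, 6.41, 9.15 and 6.53 CPM in rested CD5hi libraries. The highest rested CD5hi library lay well below the lowest fresh CD5lo library. The difference was -2.0 ± 0.12 (edgeR adjusted p = 9.3e-12), where fresh CD5hi cells had been higher by 1.13 ± 0.11. Rested CD5lo cells fell further, to 2.71 ± 0.316 CPM, so rested CD5hi cells kept 1.56 ± 0.13 over them (adjusted p = 4.1e-08). Nr4a3, its paralog, followed the same order, with 5.28, 6.29, 6.65 and 6.28 CPM in fresh CD5lo, 2.81, 2.86, 3.51 and 2.82 CPM in rested CD5hi and 1.46 ± 0.351 CPM in rested CD5lo libraries. Its difference from fresh CD5lo was -1.03 ± 0.13 (adjusted p = 1.2e-06). The third paralog, Nr4a2, did otherwise. It was rare, at 0.106, 0.102, 0.0783 and 0.0972 CPM in fresh CD5lo and 0.477, 0.101, 0.554 and 0.358 CPM in rested CD5hi libraries, and was called higher (1.90 ± 0.50; adjusted p = 0.0018) although replicate 2 lay within the fresh CD5lo range. With libraries of Y-linked reads alone the difference was 2.51.

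The promoters of Nr4a1 and Nr4a3 are shown because both carry dense matches to TGACG, the core of the cAMP response element that CREB family factors bind. Each is the 250 bases before the RefSeq start on GRCm38.p6, printed 5′ to 3′ on the gene's strand, at chr15:101266596-101266845 (plus strand) for Nr4a1 and chr4:48045055-48045304 (plus strand) for Nr4a3. Capitals mark TGACG on either strand.
Nr4a1: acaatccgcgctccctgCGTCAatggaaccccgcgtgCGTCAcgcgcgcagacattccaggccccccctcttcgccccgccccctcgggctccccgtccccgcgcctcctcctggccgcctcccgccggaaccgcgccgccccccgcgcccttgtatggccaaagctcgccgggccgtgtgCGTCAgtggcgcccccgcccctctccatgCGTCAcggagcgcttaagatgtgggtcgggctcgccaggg
Nr4a3: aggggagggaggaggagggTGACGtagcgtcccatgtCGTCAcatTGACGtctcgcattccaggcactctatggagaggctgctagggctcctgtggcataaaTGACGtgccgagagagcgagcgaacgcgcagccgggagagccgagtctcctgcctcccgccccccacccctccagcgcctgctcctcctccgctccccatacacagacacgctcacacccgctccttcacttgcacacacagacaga
Each window held 4 matches, which 0.16% of the 27025 genes with a promoter of this length had, while 19.79% had at least 1. Of the 9 TCR-induced genes called lower, 5 had a promoter in the table and 3 had a match (Nr4a1, Nr4a3 and Egr2). Of the 10 called higher, 7 had a promoter and 2 had a match (Nr4a2 and Cd200). Nr4a2, which was called higher, also held at least 4, so dense matches were present on both sides.

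The Egr genes, zinc finger factors induced within minutes of TCR ligation, fell to low levels in both rested groups. Egr2 stood at 13.1, 13.4, 10.7 and 12.8 CPM in fresh CD5lo and 1.09, 0.764, 2.19 and 0.872 CPM in rested CD5hi libraries, a difference of -3.34 ± 0.25 (edgeR adjusted p = 2.5e-10). Egr3 stood at 14.0, 15.3, 11.8 and 14.0 CPM in fresh CD5lo and 0.212, 0.281, 0.575 and 0.134 CPM in rested CD5hi libraries, a difference of -5.48 ± 0.26 (adjusted p = 8.3e-15). In both genes replicate 3, the library with Y-linked reads, was the highest of the rested CD5hi libraries, and with libraries of Y-linked reads alone the differences were -2.49 and -4.56, both still called. Egr1 ran from 63.6 CPM on average in fresh CD5lo to 12.4 CPM in rested CD5hi and 10.8 CPM in rested CD5lo cells (-2.36 ± 0.18). None of the 3 Egr genes passed the test between the rested groups, with differences of 0.20 ± 0.18 for Egr1, 0.67 ± 0.32 for Egr2 and -0.30 ± 0.32 for Egr3; whether this differs from the Nr4a genes was not tested.

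Dusp6 and Rasal1, whose products dampen the same pathway, were lower too. Dusp6, an ERK phosphatase, stood at 26.8, 22.6, 24.1 and 26.7 CPM in fresh CD5lo and 3.74, 3.62, 4.11 and 3.15 CPM in rested CD5hi libraries (-2.78 ± 0.11; edgeR adjusted p = 8.3e-15). Rasal1, a GTPase-activating protein for Ras, went from 28.2, 28.1, 24.7 and 29.6 to 5.91, 6.23, 3.51 and 4.36 CPM (-2.47 ± 0.13), and rested CD5lo cells were lower still at 2.86 ± 0.467 CPM. Neither gene overlapped between the groups. Ddit4, an inhibitor of mTORC1 (-2.55 ± 0.18), the transcription factor gene Tox (-1.30 ± 0.09) and Ctsw, a protease gene of cytotoxic cells (-1.90 ± 0.14), had also been higher in fresh CD5hi cells and passed below fresh CD5lo cells. Cd69, an early activation marker whose product was among those gated out, was not linked to CD5 when fresh, and fell from 52.7, 53.4, 54.1 and 60.4 to 7.95, 5.33, 14.4 and 8.51 CPM (-2.61 ± 0.24; -1.92 with libraries of Y-linked reads alone).

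**Figure D2:**
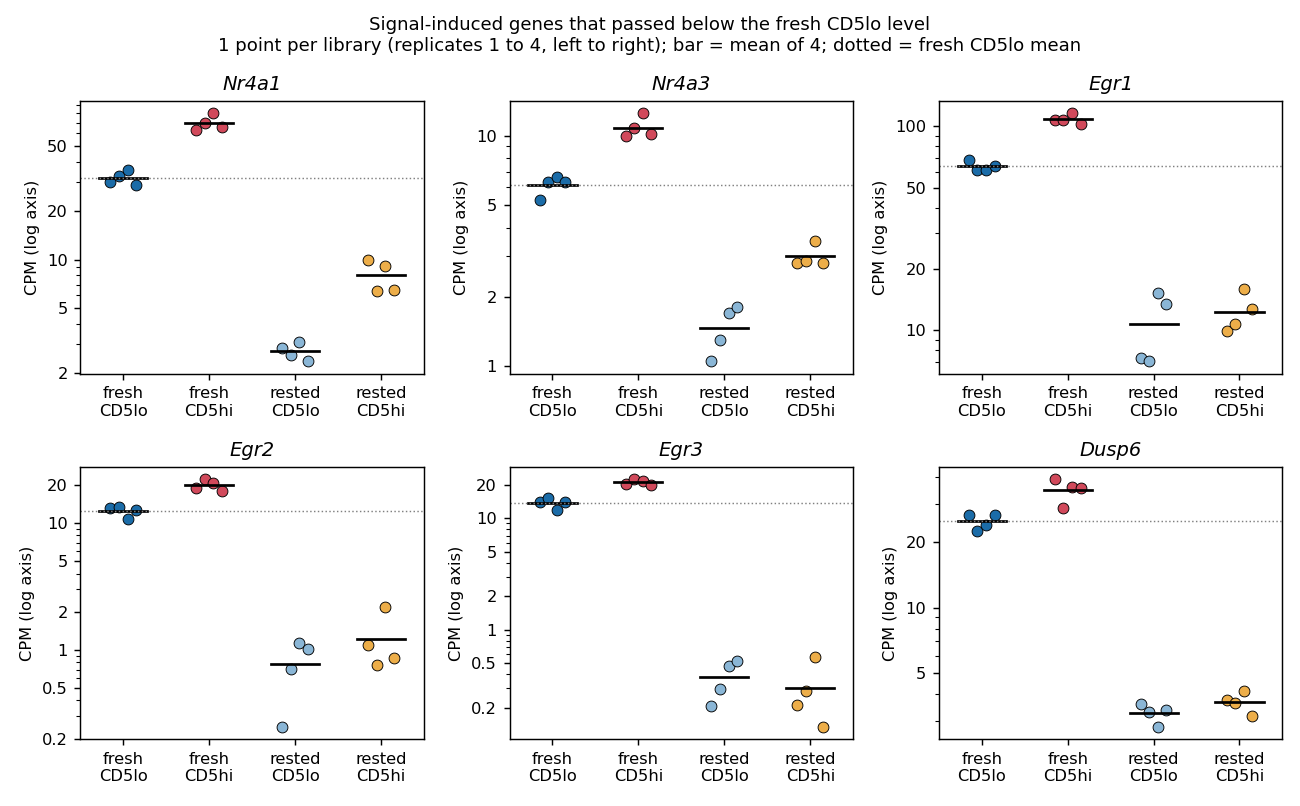
Levels in CPM on a log axis in the 4 naive groups, 1 point per library, with the mean of 4 as a bar and the fresh CD5lo mean as a dotted line. In all 6 genes the rested CD5hi libraries lie below the fresh CD5lo libraries, and Nr4a1 and Nr4a3 remain higher in rested CD5hi than in rested CD5lo libraries.

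Inhibitory receptors and adaptors were found in every class. Of 30 negative regulators of TCR signalling, 14 were higher in fresh CD5hi cells. Of the 14, 10 stayed (Cd5, Cd6, Folr4, Nt5e, Pdcd1, Ctla4, Ubash3b, Cblb, Dgkz and Dok2), Btla reached the level, Ptpn6 and Lax1 passed below it, and Lag3 could not be placed; 59.3% of all fresh-higher genes stayed. The whole list had 14 called higher, 9 lower and a median of 0.19. The level of Cd5 is tied to the gate itself.

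Cd5, Cd6 and Folr4 came part of the way down. Cd5 differed from fresh CD5lo by 2.73 ± 0.06 when fresh and by 1.64 ± 0.06 after resting, while rested CD5lo cells fell to 94.5 ± 6.49 CPM. Cd6, a relative of CD5, stood at 200.3, 216, 181 and 209.7 CPM in fresh CD5lo and 489, 483, 558 and 495 CPM in rested CD5hi libraries, against 996 ± 52.6 CPM in fresh CD5hi cells. The difference of 1.33 ± 0.06 (edgeR adjusted p = 4.9e-14) compares with 2.30 ± 0.06 when fresh. Folr4, which encodes a folate receptor family protein carried by Treg and anergic cells, stood at 37.3, 38.4, 31.9 and 35.1 CPM in fresh CD5lo and 75.5, 68.8, 74.3 and 58.8 CPM in rested CD5hi libraries, a difference of 0.96 ± 0.07 against 2.65 ± 0.07 when fresh. In all 3 genes the rested CD5hi libraries lay between the fresh groups without overlap, and rested CD5lo libraries lay below fresh CD5lo libraries.

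Tnfrsf9, which encodes the costimulatory receptor 4-1BB, stood at 1.68, 1.48, 1.35 and 1.79 CPM in fresh CD5lo and 2.89, 1.91, 2.96 and 2.91 CPM in rested CD5hi libraries (0.75 ± 0.13 against 2.82 ± 0.12 when fresh). Pdcd1, which encodes PD-1, averaged 1.61 ± 0.510 and 2.88 ± 0.570 CPM (0.84 ± 0.21; edgeR adjusted p = 0.0022). Ikzf2, which encodes Helios, averaged 1.75 ± 0.424 and 5.18 ± 0.692 CPM (1.56 ± 0.15). Cd200, the gene of an inhibitory ligand, did not pass the test against its fresh level: it averaged 23.1 ± 1.91 CPM in fresh CD5hi and 18.7 ± 3.26 CPM in rested CD5hi cells (-0.31 ± 0.14; adjusted p = 0.080), and 5.18 ± 1.34 CPM in fresh CD5lo cells. Lag3 stood at 0.609 ± 0.216 and 0.516 ± 0.242 CPM, with an interval of -1.01 to 0.56 that leaves its place undecided, and Tigit (0.62 ± 0.41; adjusted p = 0.21) did not pass.

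A second set rose past the fresh CD5hi level. Nt5e, which encodes the ectonucleotidase CD73, stood at 5.12, 9.63, 8.12 and 6.36 CPM in fresh CD5lo and 133, 143, 144 and 162 CPM in rested CD5hi libraries (4.32 ± 0.12; edgeR adjusted p = 1.8e-16). Fresh CD5hi and rested CD5lo cells were alike in mean, at 43.8 ± 3.84 and 43.8 ± 4.24 CPM. Il2rb, the beta chain shared by the receptors of IL-2 and IL-15, stood at 7.91, 8.90, 6.18 and 6.57 CPM in fresh CD5lo and 61.2, 63.1, 57.4 and 62.9 CPM in rested CD5hi libraries (3.04 ± 0.09), with 33.8 ± 1.60 and 22.7 ± 2.87 CPM in the other two naive groups. Itih5, an extracellular matrix protein gene, stood at 2.27, 4.44, 2.78 and 2.72 CPM in fresh CD5lo and 142, 130.3, 132 and 139.9 CPM in rested CD5hi libraries (5.47 ± 0.13). Ctla4, which encodes the inhibitory receptor CTLA-4, stood at 1.86, 2.11, 1.82 and 1.69 CPM in fresh CD5lo and 37.2, 35.9, 35.8 and 33.8 CPM in rested CD5hi libraries (4.25 ± 0.12), but rested CD5lo cells were at 34.1 ± 4.65 CPM and the test between the rested groups was not passed (0.06 ± 0.09; adjusted p = 0.82).

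**Figure D3:**
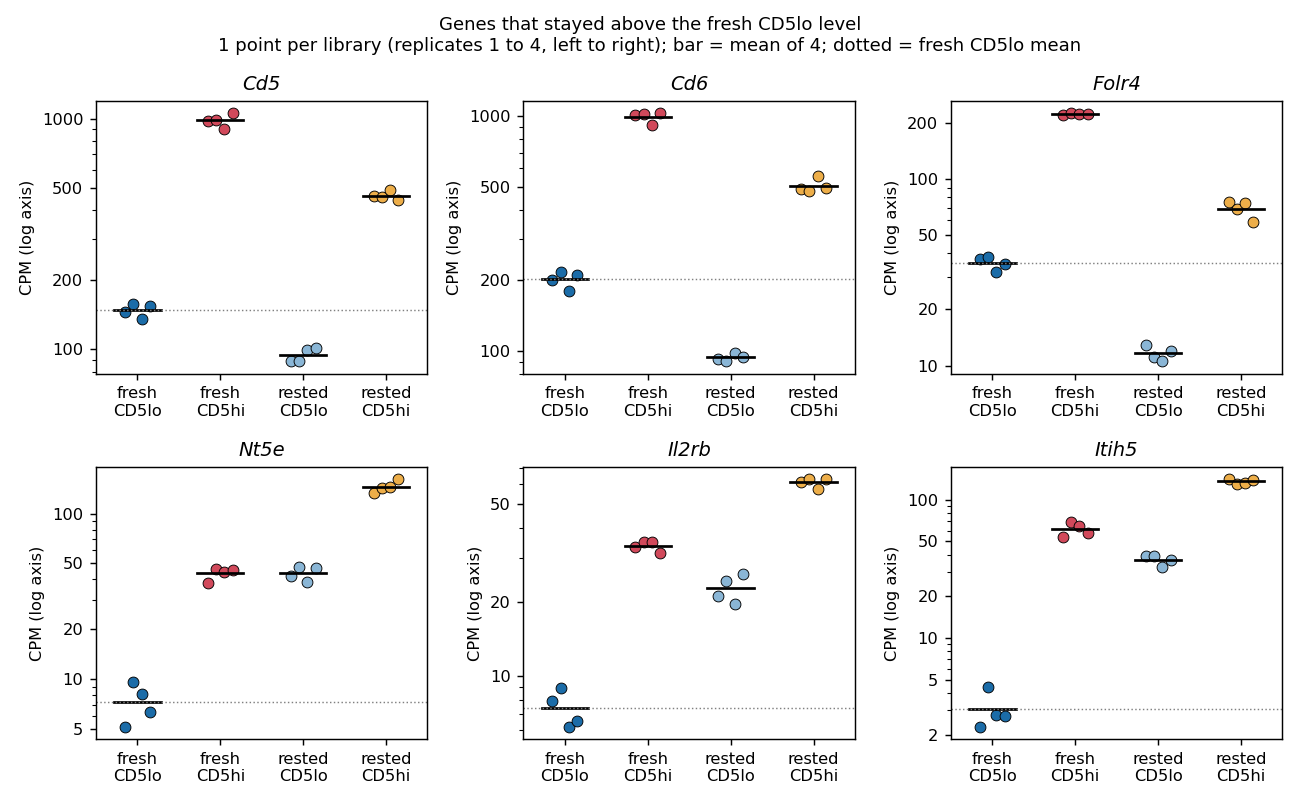
Levels in CPM on a log axis in the 4 naive groups, 1 point per library, with the mean of 4 as a bar and the fresh CD5lo mean as a dotted line. Cd5, Cd6 and Folr4 lie between the fresh groups after resting, and Nt5e, Il2rb and Itih5 lie above both.

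Among genes with at least 10 CPM in a naive group and no overlap between rested CD5hi and fresh CD5lo libraries, the 6 largest differences of those that stayed higher were in Mtap6, Acvr1c, Gucy1a3, Ecm1, Itih5 and Rgs1. Mtap6, a microtubule-stabilising protein gene, went from 0.0709, 0.153, 0.352 and 0.175 CPM in fresh CD5lo to 78.4, 81.9, 59.3 and 67.0 CPM in rested CD5hi libraries (8.59 ± 0.32; edgeR adjusted p = 7.6e-18). Acvr1c, which encodes the activin receptor ALK7, averaged 0.117 ± 0.0544 and 34.9 ± 4.56 CPM (8.22 ± 0.39). Both were also high in rested CD5lo cells, at 32.8 ± 5.43 and 8.88 ± 2.66 CPM, and both were called higher in rested CD5hi than rested CD5lo cells (1.13 ± 0.13 and 1.98 ± 0.16). Ecm1, a secreted matrix protein gene, reached the highest level of the set, 1677 ± 111 CPM against 32.2 ± 2.58 CPM (5.70 ± 0.07), with 1391 ± 35.1 CPM in rested CD5lo cells. Gucy1a3 (5.93 ± 0.35), a guanylate cyclase subunit gene, was higher in replicates 1 and 2 (60.6, 58.6, 30.7 and 37.0 CPM) and came to 5.35 with libraries of Y-linked reads alone. Rgs1 (5.17 ± 0.34), which limits chemokine receptor signalling, went the other way, with 29.0, 25.4, 67.1 and 47.3 CPM and 4.53 with rested CD5hi replicates 1 and 2 alone.

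Spry1, Id2 and Bbc3 stayed higher as well. Spry1, a feedback inhibitor of Ras signalling, stood at 0.461, 0.476, 0.431 and 0.467 CPM in fresh CD5lo and 3.53, 4.40, 4.75 and 5.21 CPM in rested CD5hi libraries (3.28 ± 0.14), so not all feedback inhibitors went the way of Dusp6. Id2, an inhibitor of E protein transcription factors, averaged 15.3 ± 2.21 and 123 ± 19.3 CPM (3.0 ± 0.14), and Bbc3, which encodes the death protein PUMA, averaged 12.4 ± 2.58 and 48.8 ± 12.1 CPM (1.97 ± 0.18).

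The Treg signature, 29 genes known from Treg, had the highest median (1.30) of the 20 lists that are no markers of other cells. Of its genes 20 were called higher, 1 lower and 8 did not pass, against 27.1% of all genes called in each direction. Of its 15 members that were higher in fresh CD5hi cells, 14 stayed, against 59.3% of all fresh-higher genes, and Penk could not be placed. Tnfrsf18, which encodes GITR (2.32 ± 0.06), Tnfrsf4, which encodes OX40 (2.84 ± 0.08), Ikzf4, which encodes a relative of Helios (2.85 ± 0.10), and Icos, a costimulatory receptor gene (1.30 ± 0.10), were among the higher ones. Rested CD5lo cells rose over fresh CD5lo cells too, by 2.07, 1.62, 2.21 and 0.77 in the same order. Rested CD5hi cells were called above rested CD5lo cells in each of these genes. Klrg1 was lower, at 0.135 ± 0.0719 CPM in fresh CD5lo and 0.0207 ± 0.0239 CPM in rested CD5hi cells, both close to 0, and the call was lost in 7 of 18 alternatives, among them without fresh CD5lo replicate 3 or rested CD5hi replicate 1 or 4. Klrg1 is the 1 member called lower, and the others named here were picked for this description after their values were seen. The list holds 3 genes of the TCR-induced list (Il2ra, Tnfrsf4 and Tnfrsf9) and 4 of the negative regulators (Folr4, Nt5e, Ctla4 and Tigit), so the 3 lists are not independent. Its median in rested CD5lo against fresh CD5lo cells was 0.26. Foxp3, a member too, averaged 28.6 ± 2.77 CPM in rested CD5hi cells and 722 ± 38 CPM in Treg libraries of the series; the part of Treg cells in these rises was not tested.

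Among genes that reached the fresh CD5lo level from above and had at least 10 CPM in a naive group, the 6 with the largest fresh difference were Rnf144a, Crmp1, Xdh, Clstn1, Myb and Top2a. Rnf144a, a ubiquitin ligase gene, stood at 30.0, 33.6, 28.6 and 27.7 CPM in fresh CD5lo and 34.1, 37.9, 32.0 and 29.5 CPM in rested CD5hi libraries, against 80.5 ± 5.90 CPM in fresh CD5hi cells. The ranges overlapped, and the interval of the difference was -0.09 to 0.40. Xdh, the gene of xanthine dehydrogenase, averaged 13.0 ± 1.65 and 13.5 ± 3.06 CPM (interval -0.21 to 0.32). For Rnf144a this was the fresh CD5lo level reached from above while rested CD5lo cells went below it (12.6 ± 3.29 CPM), so the rested groups still differed by 1.41 ± 0.12. Crmp1 (interval -0.01 to 0.45) and Clstn1 (interval -0.46 to 0.05) had the same order, with rested CD5lo means of 2.51 and 2.05 CPM; Clstn1 was called lower with rested CD5hi replicates 3 and 4 alone (-0.37). Top2a, the topoisomerase of dividing cells, stood at 8.53, 8.52, 8.39 and 7.89 CPM in fresh CD5lo and 8.91, 8.65, 9.41 and 10.2 CPM in rested CD5hi libraries (interval -0.08 to 0.39). In Top2a and Crmp1 the rested CD5hi libraries lay just above the fresh CD5lo libraries, without overlap and without passing the test. Myb, a transcription factor gene of lymphocyte progenitors, did not hold one level over its libraries, with 17.8, 19.4, 15.8 and 18.8 CPM in fresh CD5lo and 11.5, 10.9, 18.4 and 20.8 CPM in rested CD5hi libraries. With rested CD5hi replicates 1 and 2 alone it was called lower (-0.69; edgeR adjusted p = 5.9e-04).

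Genes that are lower in fresh CD5hi cells fell into the same classes. Dntt, the terminal transferase of thymocytes and recent thymic emigrants, stayed low: it stood at 28.3, 25.8, 32.6 and 28 CPM in fresh CD5lo and 2.60, 3.20, 3.62 and 3.66 CPM in rested CD5hi libraries (-3.13 ± 0.13; edgeR adjusted p = 4.6e-14). Rested CD5lo cells stood at 30.2 ± 3.29 CPM (0.08 ± 0.12 from fresh CD5lo; adjusted p = 0.61). Cd8b1, a CD8 chain gene, averaged 31.1 ± 2.59 and 6.57 ± 1.02 CPM (-2.25 ± 0.09), and Ccr9, the chemokine receptor of gut-homing and emigrant cells, averaged 14.3 ± 0.857 and 3.60 ± 0.938 CPM (-1.99 ± 0.17). All 3 thymocyte and emigrant genes that were lower in fresh CD5hi cells stayed, against 59.1% of all fresh-lower genes. The list of 11 tested had 2 called higher, 6 lower and a median of -1.14.

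Among genes with at least 10 CPM in a naive group and no overlap, the largest falls of those that stayed lower were in Slc16a5, Adamts14, Spsb1, Gbp10, Grm6 and Abhd15. Slc16a5, a monocarboxylate transporter family gene, stood at 187, 161, 164 and 174 CPM in fresh CD5lo and 1.14, 1.97, 1.21 and 1.05 CPM in rested CD5hi libraries (-6.98 ± 0.19; edgeR adjusted p = 2.6e-17). It had been at 41.0 ± 2.08 CPM in fresh CD5hi cells and was at 6.13 ± 1.76 CPM in rested CD5lo cells, so the lowest level was found where high CD5 and resting came together. Spsb1, an adaptor of ubiquitin ligases, went from 53.3 to 3.66 CPM (-3.86 ± 0.10), and Abhd15 from 20.2 to 2.11 CPM (-3.25 ± 0.21). Adamts14, a protease gene (-5.18 ± 0.38), fell less in replicates 1 and 2 (1.99, 1.39, 0.617 and 0.737 CPM) and came to -5.94 with replicates 3 and 4 alone. Grm6 (-3.42 ± 0.33), a glutamate receptor gene, and the guanylate-binding protein gene Gbp10 (-3.65 ± 0.13) were lower without overlap.

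Il2ra passed upwards. This alpha chain of the IL-2 receptor (CD25) stood at 3.03, 3.5, 2.41 and 2.76 CPM in fresh CD5lo and 1.90, 1.60, 1.22 and 1.85 CPM in fresh CD5hi libraries, and rose to 98.9, 81.8, 80.6 and 93.2 CPM in rested CD5hi libraries. The difference from fresh CD5lo was 4.91 ± 0.10 (edgeR adjusted p = 6.0e-19), and rested CD5lo cells stood slightly higher, at 108 ± 4.62 CPM (-0.29 ± 0.08). Myo6, a motor protein gene (3.82 ± 0.08), Slc30a4, a zinc transporter gene (3.52 ± 0.08), Gbp11 (2.61 ± 0.11) and Trib3, an ATF4-induced pseudokinase gene (2.58 ± 0.09), also passed from below to above, and each was called lower in rested CD5hi than in rested CD5lo cells. Dst, a cytoskeletal linker gene, passed too (2.32 ± 0.22), with 103, 96.2, 41.2 and 69.4 CPM over the rested CD5hi libraries and 1.42 with libraries of Y-linked reads alone. Tec, a kinase downstream of the TCR and cytokine receptors, averaged 27.5 ± 1.53 CPM in fresh CD5lo, 75.1 ± 10.4 CPM in rested CD5hi and 123 ± 13.1 CPM in rested CD5lo cells (1.45 ± 0.09).

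Tubb2a, Lca5, Dhrs13, Tbxa2r, Atxn1 and Socs3 had the largest fresh differences among genes of at least 10 CPM that reached the fresh CD5lo level from below. Tbxa2r, the thromboxane receptor gene, stood at 84.2, 82.3, 82.2 and 77.2 CPM in fresh CD5lo and 76.9, 79.7, 78.7 and 69.5 CPM in rested CD5hi libraries, with an interval of -0.23 to 0.04. Tubb2a, a tubulin gene, averaged 19.99 ± 2.54 and 17.1 ± 2.35 CPM (interval -0.45 to 0.01), while rested CD5lo cells rose to 42.1 ± 2.96 CPM. Of these 6, only Tbxa2r kept an uncalled difference under every alternative run; the others passed the test under at least 1. The homing receptor gene Ccr7, with a fresh difference of -0.19 ± 0.05, averaged 553 ± 28.3 and 511 ± 30.4 CPM (interval -0.23 to -0.00), and was called lower without rested CD5hi replicate 3 (-0.14; edgeR adjusted p = 0.041).

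Socs2, Pim1 and Bcl2, which are known to respond to IL-7, were higher in both rested groups. Socs2, a STAT5-induced inhibitor of cytokine signalling, stood at 0.177, 0.255, 0.157 and 0.175 CPM in fresh CD5lo and 18.9, 19.8, 14.2 and 16.9 CPM in rested CD5hi libraries (6.48 ± 0.27; edgeR adjusted p = 1.1e-16). Pim1, a survival kinase gene, stood at 91.3, 85.8, 83.4 and 81.1 and 543, 555, 514 and 492 CPM (2.62 ± 0.05), and Bcl2, the survival gene that IL-7 sustains, stood at 131, 179, 209 and 168 and 1474, 1434, 1373 and 1465 CPM (3.06 ± 0.09). The groups did not overlap in any of the 3, and of them only Bcl2 had been higher in fresh CD5hi cells (0.66 ± 0.09). Rested CD5lo cells had similar means, 13.7 ± 1.29 CPM for Socs2, 515 ± 26.0 CPM for Pim1 and 1282 ± 56.3 CPM for Bcl2, and none of the 3 passed between the rested groups. With the replicate number as a block over the 8 rested libraries, Bcl2 (0.17; edgeR adjusted p = 0.044) and Socs2 (0.35; adjusted p = 0.0081) were called higher in rested CD5hi cells. Cish, another STAT5-induced inhibitor, averaged 11.5 ± 2.51 CPM in fresh CD5lo, 32.5 ± 2.42 CPM in rested CD5lo and 55.0 ± 3.31 CPM in rested CD5hi cells, and did pass between them (0.76 ± 0.12; adjusted p = 2.4e-04). Of 19 genes of the IL-7 receptor and STAT5 list, 10 were called higher and 4 lower (Il2rg, Jak3, Stat5a and Bcl6), with a median of 0.20, against 27.1% of all genes in each direction. Il7r, the receptor's own alpha chain, averaged 521 ± 58.3 and 753 ± 170.0 CPM (0.53 ± 0.15; adjusted p = 0.0052), a call lost with rested CD5hi replicates 1 and 2 alone (0.25; adjusted p = 0.20).

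**Figure D4:**
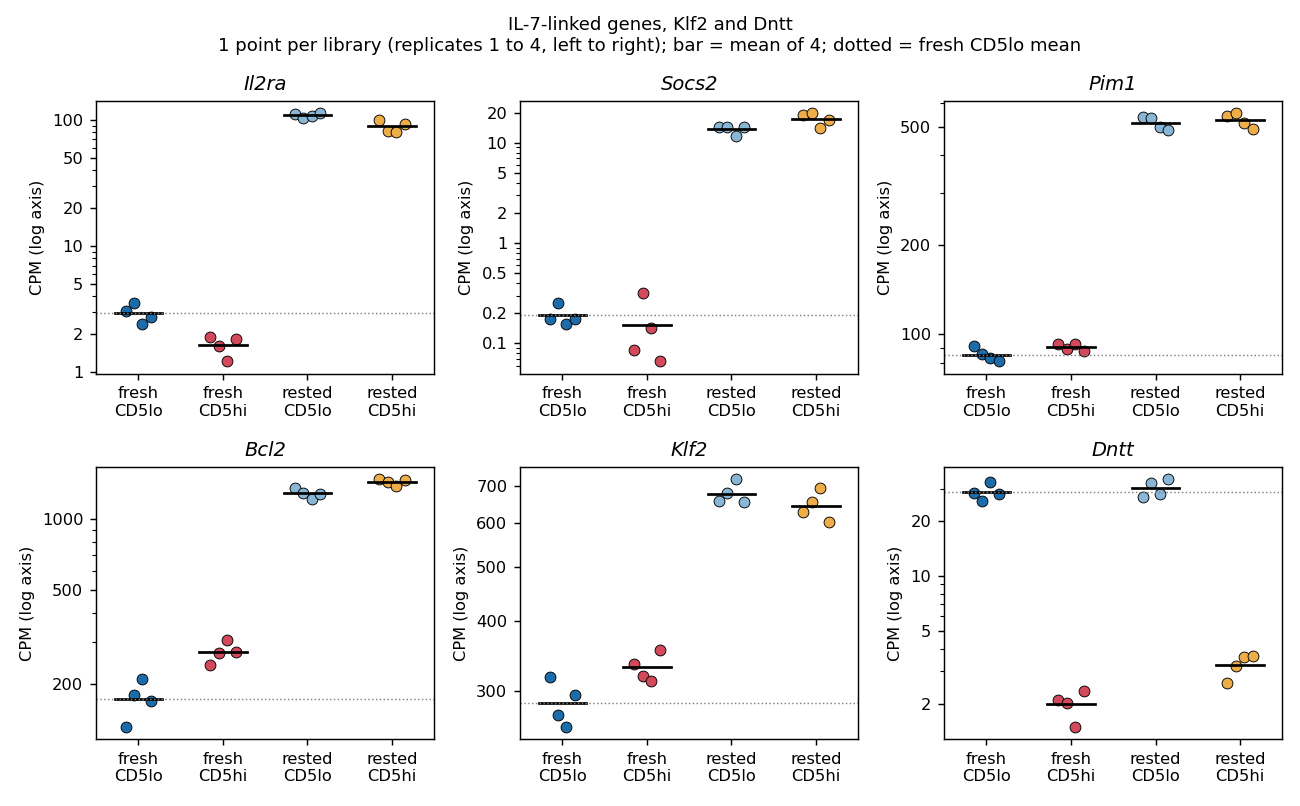
Levels in CPM on a log axis in the 4 naive groups, 1 point per library, with the mean of 4 as a bar and the fresh CD5lo mean as a dotted line. Il2ra, Socs2, Pim1, Bcl2 and Klf2 are high in both rested groups, whereas Dntt is low in both CD5hi groups and high in both CD5lo groups.

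Genes of quiescence and lymph node homing moved in both directions, with 12 called higher and 6 lower of 24 (median 0.13). Klf2, the factor that maintains naive cell recirculation, stood at 318, 272, 258 and 295 CPM in fresh CD5lo and 629, 655, 693 and 604 CPM in rested CD5hi libraries (1.17 ± 0.07; edgeR adjusted p = 2.6e-11). A known target of it was higher as well, S1pr1, the exit receptor of lymphoid organs (0.83 ± 0.06). Foxo1, which is known to induce Klf2, was lower, from 537 ± 47.0 to 211 ± 9.74 CPM (-1.35 ± 0.07). Tob1, an antiproliferative gene, was higher (1.11 ± 0.13). In rested CD5lo cells Klf2 stood at 678 ± 30.3 CPM and Foxo1 at 235 ± 19.1 CPM.

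The next genes, of at least 10 CPM in a naive group and not linked to CD5 when fresh, were called in rested CD5lo cells too. Gpr34, a lysophospholipid receptor gene, averaged 2.84 ± 0.480 and 101 ± 12.1 CPM (5.15 ± 0.12), with 105 ± 17.8 CPM in rested CD5lo cells. Cdk6, a cell cycle kinase gene, averaged 4.53 ± 0.687 and 60.5 ± 11.1 CPM (3.74 ± 0.14), and Mir17hg, the host of the miR-17 to miR-92a cluster, averaged 11.3 ± 0.939 and 77.9 ± 11.1 CPM (2.79 ± 0.18). Fsd1l (6.92 ± 0.33), Pgpep1l (3.44 ± 0.14), Neb (2.89 ± 0.22) and Atp10a (2.68 ± 0.07) were further rises. Dtx1, a target and modulator of Notch, fell from 254, 282, 323 and 290.1 CPM in fresh CD5lo to 14.2, 16.6, 8.39 and 10.7 CPM in rested CD5hi libraries (-4.53 ± 0.17), with 13.3 ± 3.58 CPM in rested CD5lo cells. Abca1, the sterol efflux pump induced by LXR, fell from 77.4 ± 12.5 to 4.65 ± 0.361 CPM (-4.05 ± 0.15).

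Cholesterol and fatty acid synthesis moved opposite to Abca1, with 18 of 25 called higher and 4 lower (Pmvk, Srebf1, Scd1 and Scd2; median 0.53). Acat2 (1.67 ± 0.07) and Idi1 (1.31 ± 0.11), enzymes of the sterol pathway, were higher, and the desaturase gene Scd2, which LXR also induces, fell from 152 ± 7.55 to 22.8 ± 2.77 CPM (-2.74 ± 0.09). Rested CD5lo cells had a median of 0.52 for the same list.

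Interferon-stimulated genes were lower almost throughout, with 33 of 36 called lower and none higher, against 27.1% of all genes in each direction. Their median was -1.68, and in rested CD5lo cells it was -1.37. Mx1, an antiviral GTPase gene, stood at 6.47, 9.07, 7.30 and 6.53 CPM in fresh CD5lo and 0.610, 0.141, 0.383 and 0.179 CPM in rested CD5hi libraries (-4.53 ± 0.34; edgeR adjusted p = 4.3e-11). Oasl2, an oligoadenylate synthetase-like gene, stood at 31.6, 30.2, 34.7 and 31.2 and 4.35, 3.28, 3.64 and 3.62 CPM (-3.11 ± 0.14). Ifi44 (-3.09 ± 0.27) and Rsad2, the gene of viperin (-3.13 ± 0.19), were lower without overlap between the groups, and Rsad2 had been higher in fresh CD5hi cells (0.55 ± 0.16). Of the 11 members that were lower in fresh CD5hi cells, 10 stayed, against 59.1% of all fresh-lower genes, and Igtp reached the fresh CD5lo level. With libraries of Y-linked reads alone, 2 members were called higher (Ifit2 and Psmb8), against none with all libraries.

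The promoters of Isg15 and Rsad2 are shown for their matches to a pair of GAAA words with any 2 bases between them, the core of the interferon-stimulated response element bound by ISGF3 and IRF factors. Isg15, a ubiquitin-like modifier gene chosen for the number of its matches after its value was seen, averaged 21.9 ± 2.81 CPM in fresh CD5lo and 4.57 ± 0.433 CPM in rested CD5hi cells (-2.26 ± 0.10). The windows are the 250 bases before the RefSeq starts on GRCm38.p6, at chr4:156200819-156201068 (minus strand) and chr12:26456453-26456702 (minus strand), 5′ to 3′ on the gene's strand, with matches on either strand in capitals.
Isg15: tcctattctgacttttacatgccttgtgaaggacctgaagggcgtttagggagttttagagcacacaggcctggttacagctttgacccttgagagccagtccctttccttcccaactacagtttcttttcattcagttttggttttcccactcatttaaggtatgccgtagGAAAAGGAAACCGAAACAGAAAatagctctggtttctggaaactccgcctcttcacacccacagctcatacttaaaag
Rsad2: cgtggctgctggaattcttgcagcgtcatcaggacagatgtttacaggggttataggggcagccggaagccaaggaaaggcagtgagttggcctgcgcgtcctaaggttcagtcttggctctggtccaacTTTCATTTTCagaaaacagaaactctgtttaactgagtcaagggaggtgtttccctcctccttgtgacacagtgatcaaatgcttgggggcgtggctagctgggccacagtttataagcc
Isg15 held 3 matches, each overlapping the next, and Rsad2 held 1. Of the 33 interferon-stimulated genes called lower, 22 had a promoter in the table and 13 (59.09%) had at least 1 match, against 3.46% of all 27025 genes.

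Markers of other cells moved between the same groups and are given beside the falls. Of 15 tested macrophage and monocyte markers, 12 were called lower and none higher (Fcgr3 with libraries of Y-linked reads alone), and the 16 of the list summed to 37.9 to 47.2 CPM in fresh CD5lo and 14.0 to 18.5 CPM in rested CD5hi libraries. C1qb and C1qc, complement genes that define macrophages, had no count in any rested CD5hi library. Against a floor of 3 counts over that group they were at least 126-fold and 121-fold lower. This bound takes counts as independent and covers counting error only. It would be smaller if both mates of a pair were counted. Csf1r, the macrophage growth factor receptor gene, stood at 3.58, 5.43, 4.74 and 3.93 CPM in fresh CD5lo and 0.0530, 0.0402, 0.0213 and 0.156 CPM in rested CD5hi libraries. All 5 tested erythroid and platelet markers were lower, with sums of 27.2 to 59.1 CPM and 0.345 to 10.2 CPM, and the platelet gene Pf4 was at 0 in rested CD5hi cells. The highest rested sum was that of the library with Y-linked reads: Hbb-b1, a globin gene whose row is identical to that of Hbb-b2, stood at 0, 0, 1.98 and 0.626 CPM. Only 3 of these markers were called lower with the 8 libraries alone and with the replicate block, where fewer genes were tested. The call of Hba-a1 was lost with rested CD5hi replicates 3 and 4 alone (-2.36, edgeR adjusted p = 0.064). Alas2 went from -2.16 to -1.01 with libraries of Y-linked reads alone. In bulk samples fewer cells of a type and less RNA per cell cannot be told apart, and the part of these cells in the interferon and other falls was not tested.

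Of 11 tested CD8, NK and cytotoxic markers, 8 were called lower and Gzmb higher, with sums of 123 to 133 CPM in fresh CD5lo and 32.1 to 34.3 CPM in rested CD5hi libraries, and Gzma and Ncr1 at 0 in the latter. The call of Gzmb was lost in 7 of 18 alternatives, among them DESeq2, the replicate block, and the fits without rested CD5hi replicate 3 and without replicate 1 or 4 of fresh CD5lo cells. Prf1, the perforin gene, averaged 41.4 ± 3.53 and 8.49 ± 0.895 CPM (-2.28 ± 0.09). B cell markers went up in 5 of 7, with sums of 4.23 to 5.89 CPM and 6.70 to 12.2 CPM; Ms4a1, which encodes CD20, averaged 0.426 ± 0.118 and 1.38 ± 0.609 CPM. Dendritic cell markers summed to 0.674 to 1.53 CPM and 0.663 to 1.43 CPM, with Zbtb46 called higher and Flt3 lower of 3, and granulocyte markers to 0.0972 to 0.372 CPM and 0.0426 to 1.94 CPM, with S100a9 called higher of 2. The calls of Zbtb46, Flt3 and S100a9 were lost in 5, 6 and 11 of 18 alternatives. Among these were, for Zbtb46, leaving out rested CD5hi replicate 4, for Flt3, rested CD5hi replicate 3, and for S100a9, rested CD5hi replicate 2 or 4, or any of replicates 1, 3 and 4 of fresh CD5lo cells.

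Targets of p53 and apoptosis genes were called higher in 15 of 17, none lower, against 27.1% of all genes in each direction. Their median was 0.72, and in rested CD5lo cells it was 0.66. Cdkn1a, which encodes the cell cycle inhibitor p21, was close to absent in fresh CD5lo libraries (0.0709, 0.0340, 0 and 0 CPM) and stood at 1.43, 1.01, 2.41 and 1.70 CPM in rested CD5hi libraries (5.77 ± 0.82; edgeR adjusted p = 2.8e-08; 6.79 without fresh CD5lo replicate 1). Rested CD5lo cells had 0.329 ± 0.0876 CPM, so the rested groups differed too (2.32 ± 0.41). Phlda3, an Akt inhibitor gene, averaged 0.324 ± 0.114 and 2.62 ± 0.790 CPM (3.01 ± 0.31), and Plk2, a stress-induced kinase gene, 0.373 ± 0.0731 and 1.61 ± 0.201 CPM (2.10 ± 0.33). Mdm2, a p53 target, was called lower with libraries of Y-linked reads alone and with sex as a covariate.

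Cell cycle genes were called higher in 12 of 30 and lower in none, against 27.1% of all genes in each direction. Their median was 0.49, and in rested CD5lo cells it was -0.06. Levels were low: Cdk1, the mitotic kinase gene, averaged 0.444 ± 0.0533 CPM in fresh CD5lo, 0.594 ± 0.0185 CPM in rested CD5lo and 1.26 ± 0.148 CPM in rested CD5hi cells (1.51 ± 0.20; 1.08 ± 0.20 between the rested groups). Kif11, a spindle motor gene, averaged 1.48 ± 0.286 and 3.93 ± 0.509 CPM (1.4 ± 0.16), and Tpx2 0.705 ± 0.0705 and 1.67 ± 0.520 CPM (1.23 ± 0.21). Mcm4, a replication helicase gene, was called lower without fresh CD5lo replicate 4. Both Cdk1 and Kif11 had been higher in fresh CD5hi cells and stayed.

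The remaining lists held no single direction. Immediate early genes were called higher in 6 and lower in 4 of 14 (median 0.06), and higher in 3 with rested CD5hi replicates 1 and 2 alone. Fos rose from 8.24 ± 1.49 to 28.5 ± 3.54 CPM (1.79 ± 0.24) and Klf6 from 115 ± 5.87 to 283 ± 20.7 CPM (1.31 ± 0.05). Jun fell (-1.27 ± 0.31), by less with libraries of Y-linked reads alone (-0.94), which leave 1 rested CD5hi library. Proximal TCR signalling had 6 higher and 14 lower of 26 (median -0.19), and Cd4, Grap2 and Themis, all lower in fresh CD5hi cells, stayed lower. Among its rises were Rasgrp1, the Ras activator gene (1.17 ± 0.09), and Trat1, a TCR adaptor gene (1.26 ± 0.13). Effector and memory genes had 12 higher and 10 lower of 29 (median 0.28), with S100a6, a calcium-binding protein gene (2.12 ± 0.43), and Ccr2, a receptor of inflammatory chemokines (1.74 ± 0.41), among the rises. Ribosome biogenesis had 8 and 7 of 29 (median 0.04), where 27.1% of all genes were called in each direction. Its 7 lower calls became 4 with the replicate block and 2 with rested CD5hi replicates 1 and 2 alone. Glycolysis had 7 and 4 of 19 (median 0.09), and ATF4 and amino acid stress 6 and 10 of 23 (median -0.19). As examples of rises in these lists, Npm1, a nucleolar chaperone gene, went from 643 ± 16.2 to 881 ± 92.5 CPM (0.45 ± 0.08), the enolase gene Eno1 from 229.5 ± 8.94 to 480.2 ± 28.7 CPM (1.06 ± 0.05) and the hexokinase gene Hk2 from 0.207 ± 0.116 to 1.07 ± 0.244 CPM (2.35 ± 0.37). Falls included Ddit4 of the ATF4 list (-2.55), given above.

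Clock genes were called higher in 9 and lower in 2 (Per2 and Tef) of 16 (median 0.52); the hour of harvest is not given in the sources used here. Bhlhe40, a repressor induced by TCR signals and a clock output, rose from 0.512 ± 0.194 to 4.33 ± 1.01 CPM (3.07 ± 0.28) and was higher than in rested CD5lo cells (1.83 ± 0.24). Per3 rose (1.63 ± 0.17) and Per2 fell (-2.12 ± 0.20; -2.76 with libraries of Y-linked reads alone). Glucocorticoid-induced genes had 4 in each direction of 12 (median 0.05), with Klf9 higher (2.82 ± 0.20) and Sgk1 lower (-1.19 ± 0.09). Oxidative stress genes had 6 higher and 2 lower of 11 (median 0.48; 1 lower without fresh CD5lo replicate 1), with Txnrd1 higher (0.67 ± 0.05) and Hmox1, a haem-degrading enzyme gene that macrophages carry, lower (-1.89 ± 0.20). Chaperones had 1 higher (Pdia4) and 3 lower (Hspa5, Hspa1b and Calr) of 17 (median 0.07), but 7 were called higher without fresh CD5lo replicate 3, and 5 with the replicate block. The difference of Hspa5 was -0.31 with all libraries and -0.13 with libraries of Y-linked reads alone. The call on Hspa1b, an inducible HSP70 gene, rested on an uneven fresh group, with 1.52, 2.16, 63.8 and 8.65 CPM in fresh CD5lo and 0.292, 0.201, 0.958 and 0.514 CPM in rested CD5hi libraries (-5.25 ± 1.59; edgeR adjusted p = 0.0050), and was lost without fresh CD5lo replicate 3 (-3.03; adjusted p = 0.063).

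**Figure D5:**
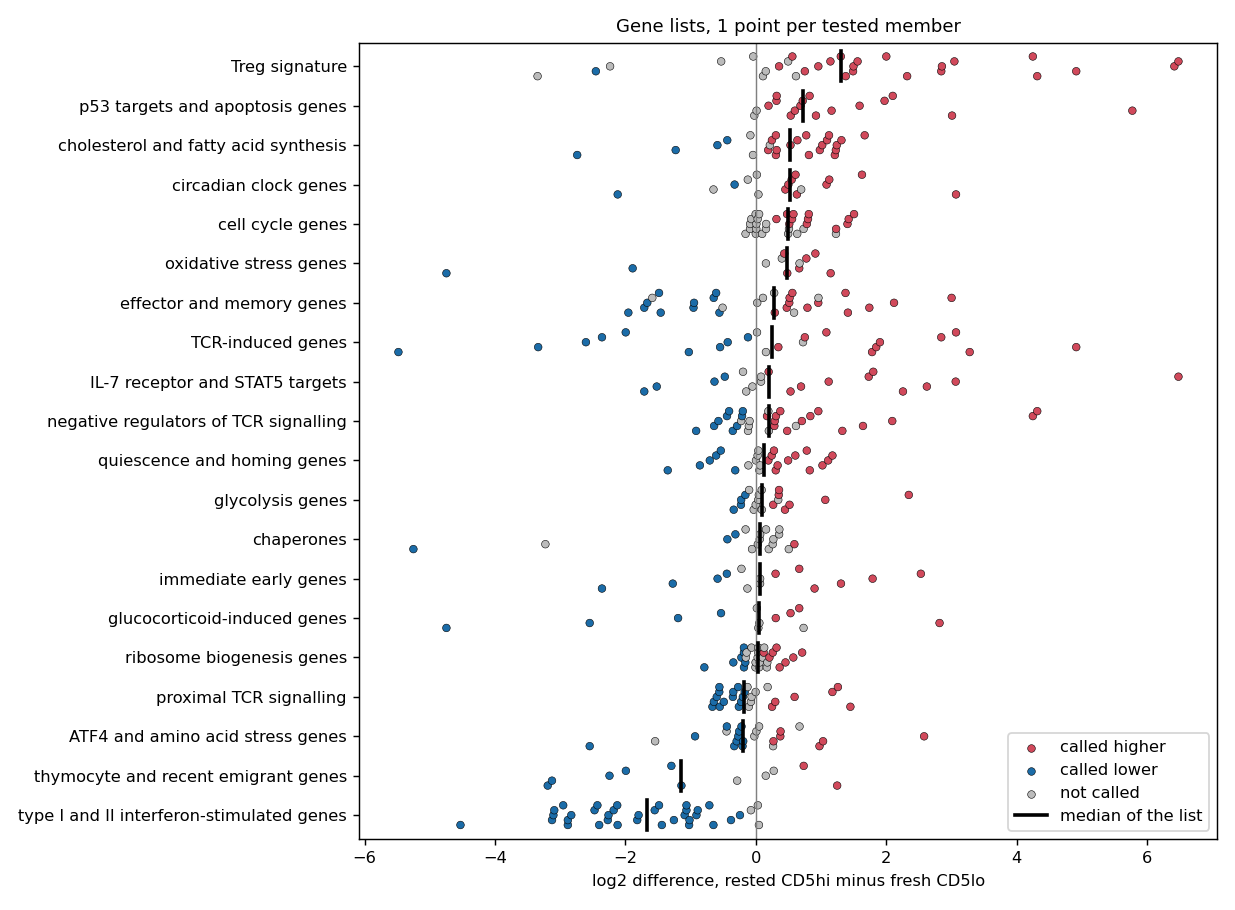
Log2 difference of rested CD5hi minus fresh CD5lo cells (x axis) for each tested member of 20 gene lists, coloured by call, with the list's median as a bar. The Treg signature has the highest median (1.30) and the interferon-stimulated genes the lowest (-1.68), and TCR-induced genes spread from Egr3 to Il2ra.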

How the data were processed

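Poly(A) RNA was sequenced from sorted cells, and the authors deposited whole-number read counts for 22068 genes in 20 libraries. Per the submitters' processing notes, TopHat2 2.0.11, featureCounts 1.4.5 and the mm9 build were used; neither the annotation nor the counter's strandedness is stated there or in the labels. Genes that passed filterByExpr (13309) were fitted with edgeR 4.0.16 in R 4.3.3 as 1 factor of 5 groups (TMM, quasi-likelihood test, 15 residual degrees of freedom, Benjamini-Hochberg adjusted p under 0.05). Differences are log2 ± SE and levels CPM as mean ± SD (n = 4); intervals are 95%. The same steps on simulated data recovered 94% of genes changed 2-fold and 91% of those changed 1.5-fold, among 13026 genes in this comparison. Only well-counted genes were changed, most genes were left unchanged, and no sex difference was simulated. These shares therefore do not cover genes of low count or a split by sex. Of counts from 1 to 10, 62.3 to 65.3% were even in these 8 libraries, so both mates of a pair may have been counted. RLE scaling, other filters, DESeq2 1.42.0, subsets of libraries, sex as a covariate and a replicate block were tried. Same-numbered rested CD5lo and rested CD5hi libraries deviated together (correlations of 0.55, 0.46, 0.61 and 0.25). So did some unlike-numbered ones, such as rested CD5lo replicate 1 with rested CD5hi replicate 2 (0.42) and 4 with 3 (0.39). Others went down to -0.59. Whether the numbers mark true pairs is therefore not shown. For the rested groups the replicate block, added after seeing the data, is given where it changes a call. Where 1 library is left in a group, it is assumed to vary like the others. Genes were named by rule: fixed marker, receptor and cytokine genes, the 6 largest in each class and direction with at least 10 CPM in 1 naive group, the 8 largest rises and falls without a CD5 link, and up to 4 called members of each list. Some were left out for length. The members and lists were chosen with earlier results of these data known. Promoter sequences are RefSeq's on GRCm38.p6, matched by symbol, and no coordinate was carried over from mm9.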

Additional observations from a re-analysis of the deposited data

Results flagged for a closer look

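In each group of 4, the level of every gene named in the report by the rule, 116 genes and 464 groups, was checked for a highest or lowest library set apart from the others by Dixon's criterion at 95%, which chance meets in about 1 in 20 groups. It was met in 17 groups, fewer than that rate would give, so the cases below are not shown to be more than chance. Among rested CD5hi libraries, replicate 3, the one with Y-linked reads, stood high for Cd6 (558 CPM, next 495) and Nr4a3 (3.51 CPM, next 2.86) and low for Cdk6 (44.1 CPM, next 64.4). Replicate 4 stood high for Atp10a (525 CPM, next 440), Gbp11 (124 CPM, next 100) and Xdh (18 CPM, next 12.5), and replicate 2 stood low for Tnfrsf9 (1.91 CPM, next 2.89). Among fresh CD5lo libraries, replicate 3 stood high for Hspa1b (63.8 CPM, next 8.65) and Atp10a (73.1 CPM, next 69.9) and low for Rasgrp1 (546 CPM, next 604), and replicate 1 stood high for Hbb-b1 (16.6 CPM, next 9.24). Among fresh CD5hi libraries, replicate 3 stood high for Hspa1b (38.9 CPM, next 4.46) and Idi1 (34.7 CPM, next 29.0), and replicate 1 for Cd3e (364 CPM, next 347). Among rested CD5lo libraries, replicate 3 stood low for Cd3g (334 CPM, next 341) and Socs2 (11.8 CPM, next 14.2), and replicate 2 for Foxp3 (22.6 CPM, next 23.6).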

How the results depend on the processing

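No called difference of a named gene changed sign under any alternative, and the counts called stayed within 1.5 times the main count. The higher and lower calls were 3602 and 3602 with RLE scaling, 3715 and 3682 with DESeq2, 3195 and 3192 with the 8 libraries alone, 3725 and 3456 with libraries of Y-linked reads alone, and 3634 and 3651 with sex as a covariate. Leaving out 1 library at a time gave 3294 to 3605 higher and 3323 to 3510 lower. The same call was found for 77.9% of the 7212 called genes with Y-linked libraries alone and for 76.5% with rested CD5hi replicates 1 and 2 alone. Same-numbered fresh CD5lo and rested CD5hi libraries did not deviate together (correlations of -0.01, 0.06, 0.04 and -0.01), so the numbers do not pair them; the replicate block gave 3125 higher and 3141 lower. Between the rested groups, 631 and 461 calls became 776 and 659 with the block over 8 libraries (291 and 204 without it), and apart from Bcl2 and Socs2 it changed the call of no difference printed between them. Over all alternatives the fresh-higher genes that stayed numbered 486 to 553 and those that passed 145 to 160, and the fresh-lower genes that stayed 307 to 363 and those that passed 85 to 107, with the fewest staying with Y-linked libraries alone. Counts of list members moved by over 1.5 times in 69 of 972 cases. Sex is nearly the same split as resting, and 1 rested CD5hi library carries the within-sex values. Below about 1 CPM, as for Nr4a2, Lag3 and Tigit, counting limits the differences that could be detected.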
